A study of Macaca mulatta with 9 samples.

Results

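The insulin-like growth factor (IGF) axis was followed in the prostates of rhesus monkeys whose mothers had received TCDD. The genes were chosen by name, as the transcripts of 9 genes: the ligands IGF1 and IGF2, the receptor IGF1R, and the binding proteins IGFBP1 to IGFBP6. Each was looked up among the 20217 probes of the array by its human RefSeq transcript accession, and 6 of the 9 had a probe, 1 each. These were IGF1 (NM_000618), IGF1R (NM_000875), IGFBP1 (NM_000596), IGFBP2 (NM_000597), IGFBP4 (NM_001552) and IGFBP5 (NM_000599). IGF2, IGFBP3 and IGFBP6 were not analysed here.

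IGF1 is a small secreted hormone made by the liver and, locally, by stromal cells of many tissues. It binds the tyrosine kinase receptor IGF1R, which promotes growth and survival of the cell. The IGF binding proteins hold IGFs in the extracellular space, prolong their life and limit or direct their access to the receptor, and proteases that cut the binding proteins set the ligand free. In the prostate, IGF1 is known mainly as a product of the stroma that acts on the epithelium, whose growth also depends on androgens.

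TCDD, a long-lived dioxin, acts through the aryl hydrocarbon receptor. The mothers were injected under the skin with vehicle, 30 or 300 ng/kg TCDD on gestation day 20. They then received 5% of that dose at 30-day intervals through pregnancy and nursing, up to day 90 after birth. The sons were exposed only through their mothers, and their prostates were taken about 7 years later, when they were adult. Each group held 3 offspring, and 1 array was hybridised per offspring with Cy3-labelled RNA of whole homogenised gland. All animals were rhesus monkeys (Macaca mulatta) with no genetic alteration named, and the labels do not say whether offspring shared a mother. Because the tissue was not sorted, fewer cells of a type and less RNA per cell cannot be told apart.

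The arrays differed in overall brightness. The 75th percentile of the signal of an array ran from 513.9 to 1193 intensity units in vehicle, from 343.2 to 1356 for 30 ng/kg and from 1258 to 2374 for 300 ng/kg. The dimmest pair were replicates 1 and 3 of 30 ng/kg. The arrays lay on 3 slides, each with a scan of its own: slide 1 held vehicle replicates 1 and 2, slide 2 vehicle replicate 3 with 30 ng/kg replicates 1 and 2, and slide 3 the other 30 ng/kg array with all arrays of 300 ng/kg. Vehicle and 300 ng/kg never shared a slide. The secretory genes KLK3 and MSMB were well above background on all 9 arrays. Levels are given as the log2 of a probe's signal over the 75th percentile signal of the same array, so that 0 is the signal of that percentile, and a difference of 1 is a 2-fold change. Levels of different probes are not compared, since each probe binds with its own strength.

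No gene of the axis passed the test in any comparison. With limma's moderated test and Benjamini-Hochberg adjustment over 15160 tested probes, 0 of 6 genes had an adjusted p under 0.05 in each of the 3 comparisons, 300 ng/kg against vehicle, 30 ng/kg against vehicle, and 300 against 30 ng/kg. Of all tested probes, 0% passed the same limit in each comparison. At an unadjusted p under 0.05 the count was again 0 of 6 in each, beside 15.5% of all probes at 300 ng/kg, 5.05% at 30 ng/kg and 20.6% between the doses. Of the 6 genes, 5 were well above background on all 9 arrays, while IGFBP1 entered the test only through the 300 ng/kg group.

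**Figure D1:**
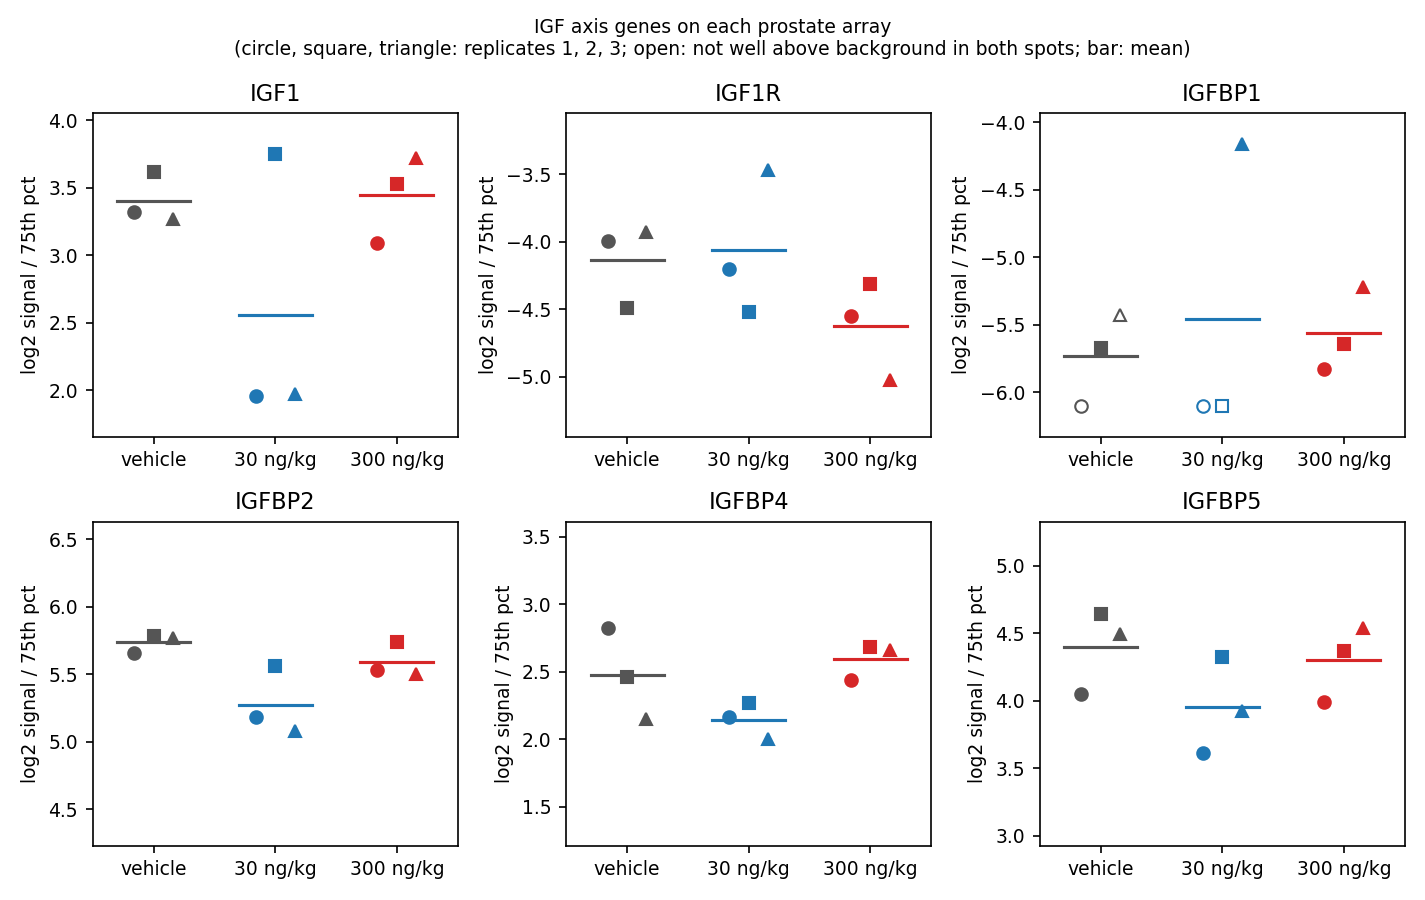
Level of each IGF axis gene on each of the 9 arrays, as log2 of signal over the array's 75th percentile, by dose; bars are group means of 3 arrays, and open symbols mark arrays where a probe was not well above background in both spots. Each panel has its own vertical range. IGF1 on replicates 1 and 3 of 30 ng/kg (1.96 and 1.97) stands apart from the other 7 arrays.

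IGF1, the ligand, had nearly equal means in vehicle and at 300 ng/kg, with its lowest values at 30 ng/kg. Its probe A_01_P000011 (NM_000618) read 3.32, 3.62 and 3.27 on the vehicle arrays, 1.96, 3.75 and 1.97 at 30 ng/kg, and 3.09, 3.53 and 3.72 at 300 ng/kg. Replicates 1 and 3 of 30 ng/kg were lower than every other array, while replicate 2 of the same dose was the highest of all 9, so that this group overlapped both others. The group means were 3.41 ± 0.19 in vehicle (SD, n = 3), 2.56 ± 1.03 for 30 ng/kg and 3.44 ± 0.32 for 300 ng/kg. The neighbours vehicle and 300 ng/kg in this order did not differ beyond their spread.

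Against vehicle, the IGF1 difference was 0.04 ± 0.46 at 300 ng/kg (SE of limma's fit, adjusted p = 0.972), with a 95% interval from -0.99 to 1.07. At 30 ng/kg it was -0.84 ± 0.46 (limma, unadjusted p = 0.0975, adjusted p = 0.946), a mean 1.79-fold below vehicle. The interval of that difference, -1.88 to 0.19, reached 0. Between the doses, 300 minus 30 ng/kg was 0.88 ± 0.46 (limma, unadjusted p = 0.0853, adjusted p = 0.298).

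The IGF1 differences that involve 30 ng/kg rest on which of its 3 arrays are used. Without replicate 2 of 30 ng/kg the difference between the doses was 1.48 (limma adjusted p = 0.0351), and IGF1 then passed the test, as did 774 of all tested probes (5.11%). With array weights, which limma sets lower for arrays that deviate more from their group, IGF1 was 1.23 (limma adjusted p = 0.0388). It passed there, as did 19.5% of all tested probes. Those weights come from the spread of these same arrays, so that fit is no independent support. Without replicate 2 the difference from vehicle was -1.44 (limma adjusted p = 0.205). Without the dim replicates 1 and 3, which leaves 1 array of that dose, the signs turned, to 0.34 against vehicle and -0.31 between the doses. Within slide 2, 30 ng/kg minus vehicle was -0.42, and within slide 3, 300 minus 30 ng/kg was 1.47 (limma, unadjusted p = 0.012, adjusted p = 0.146). The slide 3 value sets 3 arrays against replicate 3 alone.

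IGF1R, the receptor, had its lowest group mean at 300 ng/kg, with groups that overlapped. Its probe A_01_P001609 (NM_000875) read -3.99, -4.49 and -3.93 in vehicle, -4.20, -4.52 and -3.47 at 30 ng/kg, and -4.55, -4.31 and -5.02 at 300 ng/kg. Replicate 3 of 300 ng/kg was the lowest array and replicate 3 of 30 ng/kg the highest, and vehicle and 30 ng/kg had nearly the same mean. The difference from vehicle was -0.49 ± 0.33 at 300 ng/kg (limma, unadjusted p = 0.168, adjusted p = 0.459, interval -1.23 to 0.25). At 30 ng/kg it was 0.07 ± 0.33 (limma adjusted p = 0.989), and between the doses -0.56 ± 0.33 (limma adjusted p = 0.343). With slide as a fixed block the 300 ng/kg difference was -1.60 (limma, unadjusted p = 0.0254, adjusted p = 0.194). Vehicle and 300 ng/kg shared no slide, so that value is joined from the within-slide differences given next. Vehicle enters it only by replicate 3, and slide 3 holds 30 ng/kg only by replicate 3. Within slide 3 the doses differed by -1.16 (limma adjusted p = 0.179), and within slide 2 the 30 ng/kg difference from vehicle was -0.44, of the other sign. These signals were weak, from 18.7 to 81.4 intensity units before scaling, although both spots were well above background on all 9 arrays.

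**Figure D2:**
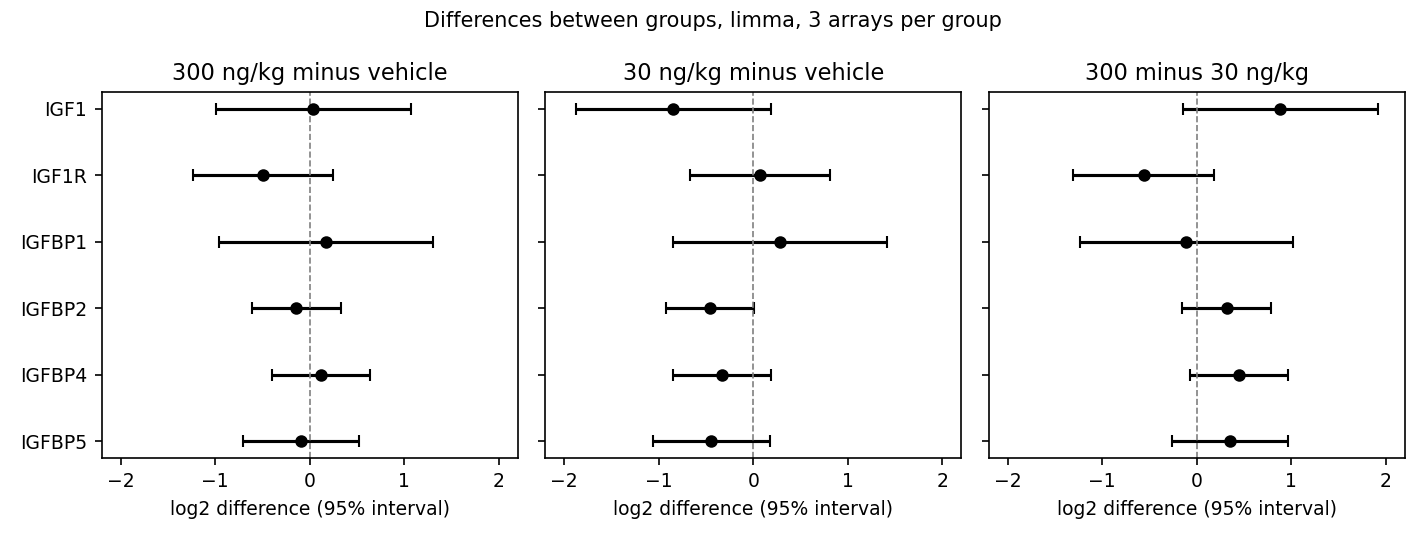
Log2 differences between groups for the 6 genes, from limma's fit to 9 arrays with 3 per group; points are estimates and bars 95% intervals, and the dashed line marks 0. Every interval spans 0, and that of IGFBP2 at 30 ng/kg against vehicle does so narrowly (-0.93 to 0.01).

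Of the binding proteins, IGFBP2, which occurs in plasma and in many epithelia, gave the only groups without overlap against vehicle. Its probe A_01_P004898 (NM_000597) read 5.66, 5.78 and 5.77 in vehicle, 5.18, 5.56 and 5.08 at 30 ng/kg, and 5.53, 5.74 and 5.50 at 300 ng/kg. All arrays of 30 ng/kg were below all vehicle arrays, and the 300 ng/kg arrays lay across the gap between these groups. At 30 ng/kg against vehicle 1 of 6 genes had groups that did not overlap, beside 9.38% of all tested probes and 4.45% with the exposed group lower. The group means were 5.73 ± 0.07 (SD, n = 3), 5.28 ± 0.25 and 5.59 ± 0.13 in order of dose.

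The IGFBP2 difference at 30 ng/kg was -0.46 ± 0.21 (limma, unadjusted p = 0.0545, adjusted p = 0.946), a mean 1.37-fold below vehicle. It was -0.40 within slide 2, between -0.60 and -0.36 with 1 array left out, and -0.17 without the 2 dimmest arrays. At 300 ng/kg the difference from vehicle was -0.14 ± 0.21 (limma adjusted p = 0.749), with an interval from -0.61 to 0.33. Between the doses it was 0.32 ± 0.21 (limma adjusted p = 0.394). IGFBP2 varied least among the 6 genes: its scaled levels covered a 1.62-fold range over the 9 arrays, and its residual SD of 0.168 lay at the 5.58th percentile of all tested probes.

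IGFBP4, a binding protein that inhibits IGF action and is cut by the protease PAPP-A, did not pass the test in any comparison. Its 2 dose groups did not overlap each other, but both overlapped vehicle. Its probe A_01_P015822 (NM_001552) read 2.82, 2.46 and 2.15 in vehicle, 2.16, 2.27 and 2.00 at 30 ng/kg, and 2.44, 2.68 and 2.66 at 300 ng/kg. All arrays of 300 ng/kg were above all arrays of 30 ng/kg, and the vehicle arrays spanned both. Between the doses 1 of 6 genes thus had groups that did not overlap, beside 25.6% of all tested probes and 11.2% with 300 ng/kg higher.

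The IGFBP4 difference between the doses was 0.45 ± 0.23 (limma, unadjusted p = 0.0818, adjusted p = 0.292), and 0.59 within slide 3. Against vehicle it was -0.33 ± 0.23 at 30 ng/kg (limma adjusted p = 0.946) and 0.12 ± 0.23 at 300 ng/kg (limma adjusted p = 0.825). Within slide 2 the 30 ng/kg difference was 0.07, of the other sign. At 300 ng/kg against vehicle 0 of 6 genes had groups without overlap, beside 22.7% of all tested probes.

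IGFBP5, a binding protein of connective tissue and muscle that also binds extracellular matrix, had overlapping groups in every comparison. Its probe A_01_P011656 (NM_000599) read 4.05, 4.64 and 4.49 in vehicle, 3.61, 4.32 and 3.92 at 30 ng/kg, and 3.99, 4.37 and 4.54 at 300 ng/kg. Replicate 1 was the lowest array of each group, and the lowest of all were replicates 1 and 3 of 30 ng/kg. The difference from vehicle was -0.44 ± 0.27 at 30 ng/kg (limma, unadjusted p = 0.138, adjusted p = 0.946) and -0.09 ± 0.27 at 300 ng/kg (limma adjusted p = 0.888). Between arrays of the same replicate number, 30 ng/kg minus vehicle was -0.44, -0.32 and -0.57 for IGFBP5. IGFBP2 gave -0.47, -0.21 and -0.69, IGFBP4 -0.65, -0.20 and -0.14, and IGF1 -1.36, 0.12 and -1.30. IGF1R gave -0.21, -0.03 and 0.46, and IGFBP1 0, -0.43 and 1.28. The labels name no pairs, and some arrays of unlike number deviated together as much as same-numbered ones. These values restate the group difference and do not replicate it, and the share of all probes below in all 3 was not counted. With the replicate number as a block IGF1, IGFBP2, IGFBP4 and IGFBP5 did not pass the test (limma adjusted p from 0.801 to 0.864). Between the doses the IGFBP5 difference was 0.35 ± 0.27 (limma adjusted p = 0.464). Within slide 2 the 30 ng/kg difference was -0.52, and within slide 3 the difference between the doses was 0.38. In the macaque reference table the genes of IGFBP2 and IGFBP5 are next to each other, as are those of IGFBP1 and IGFBP3.

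IGFBP1, a binding protein made mainly by the liver and the decidua, was near the limit of detection. Both spots of its probe A_01_P002590 (NM_000596) were well above background on 1 of 3 vehicle arrays, 1 of 3 at 30 ng/kg and 3 of 3 at 300 ng/kg. Its scaled levels were -6.10, -5.67 and -5.43 in vehicle, -6.10, -6.10 and -4.16 at 30 ng/kg, and -5.83, -5.64 and -5.22 at 300 ng/kg. The value -6.10 is the floor set for weak signals, so the 3 arrays there have no order among themselves. Replicate 3 of 30 ng/kg, the second dimmest array, was the highest, and the groups overlapped. The signal before scaling was 22.2, 32.2 and 63.7 intensity units at 300 ng/kg and 5.77, 23.4 and 18.5 in vehicle, and the 300 ng/kg arrays were also the brightest group, with a mean 75th percentile of 1748 ± 570.3 (SD, n = 3) against 835.1 ± 340.9 in vehicle. The part of brightness in this detection was not tested. The difference at 300 ng/kg was 0.17 ± 0.50 against vehicle (limma adjusted p = 0.886), and it was -2.07 with slide as a fixed block (limma adjusted p = 0.1). No slide held both groups, so the blocked value uses vehicle replicate 3 alone of its group. It is linked to 300 ng/kg through replicate 3 of 30 ng/kg, the highest array. The duplicate spots of this probe differed by up to 2.14 log2 units on 1 array, against at most 0.399 for IGFBP5 and 0.114 for IGF1.

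Side by side, 4 of the 6 genes had a lower mean at 30 ng/kg than in vehicle, beside 47.6% of all tested probes, and 3 of 6 at 300 ng/kg, beside 50.4%. The median difference of the 6 genes was -0.39 at 30 ng/kg and -0.03 at 300 ng/kg, where that of all tested probes was 0.02 and -0.01. Without IGFBP1 the medians of the other 5 were -0.44 and -0.09. IGF1, IGFBP2, IGFBP4 and IGFBP5 were the genes below vehicle at 30 ng/kg, by 0.84, 0.46, 0.33 and 0.44 on the log2 scale, and none of these differences passed the test. Both exposed groups are set against the same vehicle arrays, so these rows of values are not independent of each other.

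**Figure D3:**
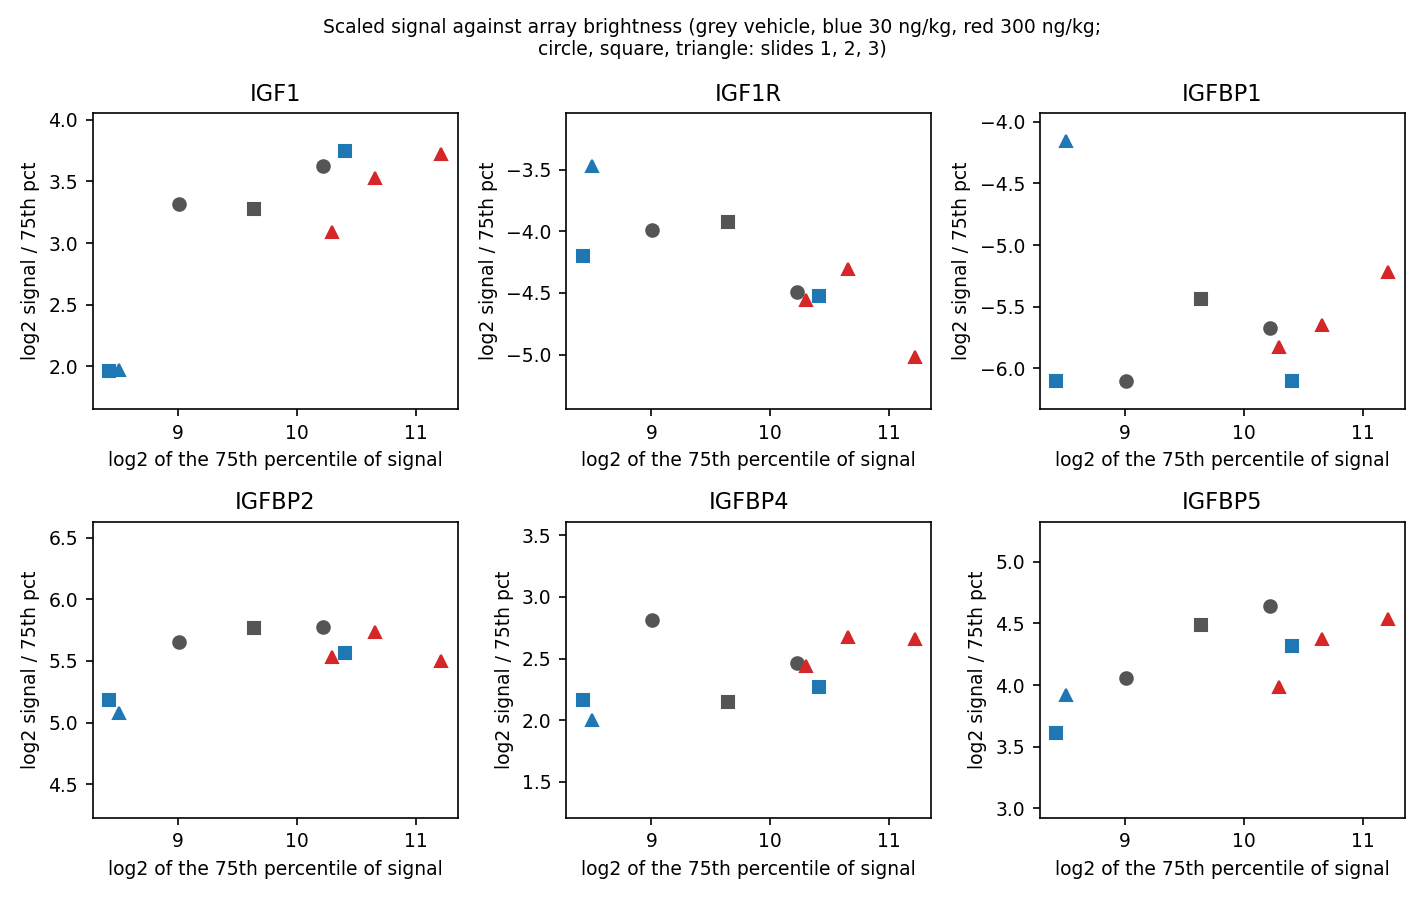
Level of each gene, as log2 of signal over the array's 75th percentile, against the log2 of that percentile, for the 9 arrays; colours are doses and shapes slides. IGF1 and IGFBP5 stand higher and IGF1R lower on brighter arrays.

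The scaled level of each gene was set against the brightness of the array. How many of all tested probes move with brightness was not counted, so no relation below can be called particular to these genes. Each level is divided by the same percentile that serves as brightness. Brightness also differed between the dose groups, and the permutations ran over all 9 arrays without regard to dose. Their p therefore does not tell brightness from dose. Over the 9 arrays, the IGF1 level rose with log2 brightness, with Pearson's r = 0.850 (exact permutation p = 0.00285, adjusted over 6 genes p = 0.0157) and Spearman's rho = 0.783 (exact permutation p = 0.0172). Leaving out the pair farthest from the median brightness, the dim arrays of 30 ng/kg, gave r = 0.557 over 7 arrays. Slide 2 with 3 arrays gave 0.991 and slide 3 with 4 arrays 0.993, while slide 1 had too few for a value. Slide 2 held the dim replicate 1 of 30 ng/kg, and slide 3 the dim replicate 3, there the only array of its dose. The values within slides, here and below, are thus not free of the dim arrays.

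IGF1R went the other way, with r = -0.821 (exact permutation p = 0.00522, adjusted p = 0.0157), rho = -0.767 (exact permutation p = 0.0214) and -0.871 without those 2 arrays. Within slides 2 and 3 its r was -0.429 and -0.951. IGFBP5 had r = 0.756 (exact permutation p = 0.0211, adjusted p = 0.0422) and rho = 0.633 (exact permutation p = 0.076). Its r was 0.426 over the 7 arrays and 0.838 and 0.836 within slides 2 and 3. IGFBP2 and IGFBP4 had r = 0.599 and 0.511 (exact permutation p = 0.0901 and 0.16), which became -0.432 and 0.005 without the 2 dim arrays, so these relations rest on them. For IGFBP1 r was -0.156 (exact permutation p = 0.721). All tests were 2-sided. The part of brightness in the differences between groups was not tested apart from a fit with brightness as a covariate, in which IGF1 stood at -0.79 at 300 ng/kg against vehicle (limma, unadjusted p = 0.0229, adjusted p = 0.67) and IGF1R at -0.07. In the same fit the IGF1 difference at 30 ng/kg was -0.46 (limma, unadjusted p = 0.0934, adjusted p = 0.995), against -0.84 without the covariate.

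The balance of binding protein to ligand was compared within each array, from the scaled levels. The log2 ratio of IGFBP2 to IGF1, set to 0 at the vehicle mean, was 0.01, -0.18 and 0.17 in vehicle, 0.89, -0.52 and 0.78 at 30 ng/kg, and 0.12, -0.12 and -0.55 at 300 ng/kg. At 30 ng/kg replicates 1 and 3, the dimmest arrays, were above all others, and replicate 2 lay at the low end. The part of brightness in this ratio was not tested. The mean difference from vehicle was 0.39 at 30 ng/kg for IGFBP2 to IGF1, 0.51 for IGFBP4 to IGF1 and 0.40 for IGFBP5 to IGF1. At 300 ng/kg the same differences were -0.18, 0.08 and -0.13. None of the 9 ratio comparisons had groups without overlap, and their 2-sided exact permutation p ran from 0.30 to 0.80 (adjusted over the 9, 0.60 to 0.80), where 3 against 3 arrays cannot go below 0.10.

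By Pearson's r over the 9 arrays, among 1218 tested probes that carry a symbol in the authors' deposited table, ARMCX2 was likest to IGF1 (0.929), SEMA6B to IGF1R (0.922) and C4BPB to IGFBP1 (0.830). MARS2 was likest to IGFBP2 (0.930), KIAA0232 to IGFBP4 (0.923) and FLJ36874 to IGFBP5 (0.821). These are descriptions without a test. The 9 points share their brightness, and r of the likest gene itself with brightness was 0.846 for ARMCX2, -0.883 for SEMA6B and 0.827 for FLJ36874.

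Of 60 symbols listed for the rest of the IGF pathway, 6 could be named, all through the authors' deposited table, and 4 of these were tested. That table was drawn from the same arrays for its differences, so the counts are no independent evidence of a direction. None of the 6 axis genes is in it. KLK3 is counted here by the brighter of its probes, which had saturated spots. Its other probe fell on the same side of each limit in the reported fit. By limma's adjusted p, 0 of 4 passed in any comparison. That count between the doses rests on how the arrays are weighted: with array weights all 4 passed (limma adjusted p from 0.0207 to 0.0258), beside 19.5% of all tested probes. Without 30 ng/kg replicate 2, STC2, STAT5A and the KLK3 probe with saturated spots passed, beside 5.11%. The KLK3 probe without saturated spots did not pass there (limma adjusted p = 0.0502). At an unadjusted p under 0.05, 1 was higher and 1 lower at 300 ng/kg against vehicle, beside 7.38% and 8.17% of all tested probes. At 30 ng/kg 1 was higher and 0 lower, beside 3.23% and 1.83%. At 300 against 30 ng/kg 1 was higher and 3 lower, beside 8.12% and 12.5%.

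**Figure D4:**
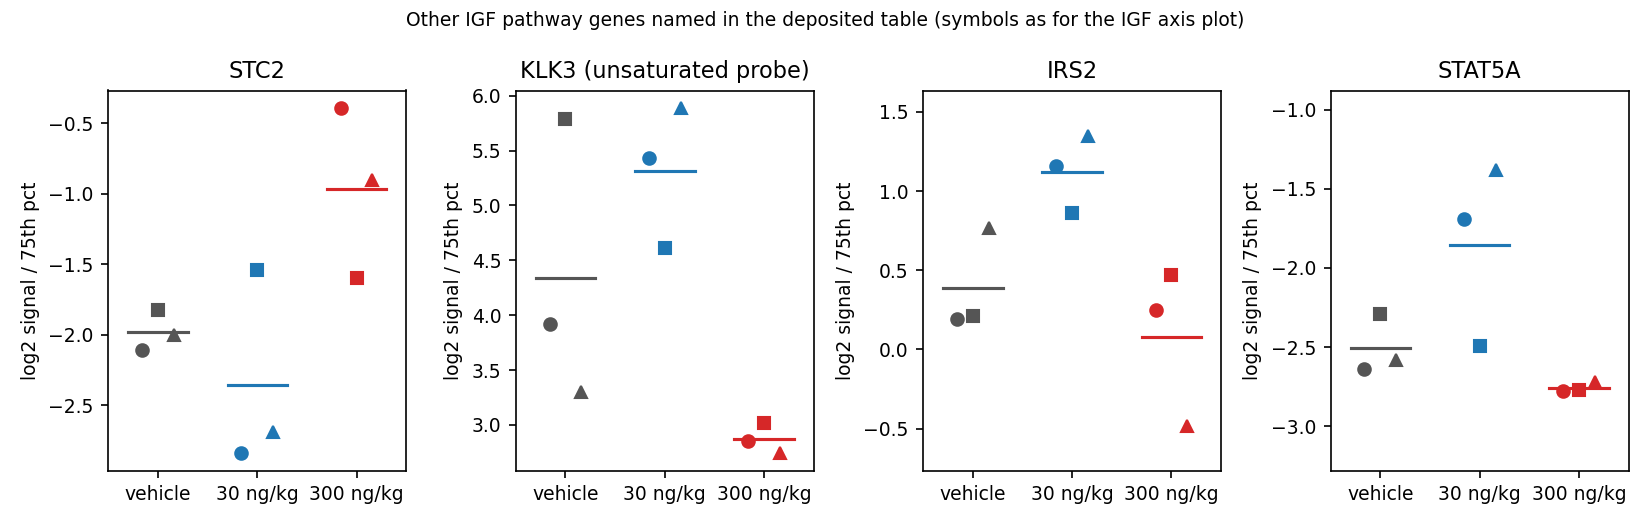
Level of 4 further IGF pathway genes on each array, as log2 of signal over the array's 75th percentile, by dose; bars are means of 3 arrays and circle, square and triangle are replicates 1, 2 and 3. All 3 arrays of 300 ng/kg lie above vehicle for STC2, and all 3 of 30 ng/kg lie above vehicle for IRS2. Of all tested probes, 22.7% and 9.38% had groups without overlap in these comparisons, in either direction. The genes were named through a table drawn for its differences.

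STC2 encodes a secreted glycoprotein that inhibits PAPP-A, the protease of IGFBP4. It read -2.11, -1.82 and -2.0 in vehicle, -2.84, -1.54 and -2.69 at 30 ng/kg, and -0.39, -1.60 and -0.90 at 300 ng/kg. All 300 ng/kg arrays were above all vehicle arrays, where 22.7% of all tested probes had groups without overlap in either direction. The difference was 1.01 ± 0.40 (limma, unadjusted p = 0.0339, adjusted p = 0.303), a mean 2.02-fold above vehicle. Between the doses it was 1.39 ± 0.40 (limma, unadjusted p = 0.00751, adjusted p = 0.161) and 1.72 within slide 3. With brightness as a covariate the 300 ng/kg difference from vehicle was 0.53 and that between the doses 0.69 (limma, unadjusted p = 0.204). Without the 2 dimmest arrays the doses differed by 0.57 (limma, unadjusted p = 0.268). Without 30 ng/kg replicate 2, STC2 passed the test between the doses at 1.80 (limma adjusted p = 0.0378).

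IRS2, the adaptor that carries the signal of the insulin and IGF receptors to the PI3 kinase, read 0.19, 0.21 and 0.77 in vehicle, 1.16, 0.86 and 1.35 at 30 ng/kg, and 0.25, 0.47 and -0.48 at 300 ng/kg. The 30 ng/kg arrays were above all other arrays. Of all tested probes, 9.38% had groups without overlap at 30 ng/kg against vehicle, and 25.6% between the doses. The IRS2 values are given next. The difference from vehicle was 0.73 ± 0.30 (limma, unadjusted p = 0.0386, adjusted p = 0.946), and 0.24 within slide 2. From 30 to 300 ng/kg it was -1.04 ± 0.30 (limma, unadjusted p = 0.00743, adjusted p = 0.161), and -1.27 within slide 3. The slide 3 value rests on replicate 3 alone of 30 ng/kg. With brightness as a covariate the 30 ng/kg difference from vehicle was 0.62 and that between the doses -0.67 (limma, unadjusted p = 0.0729 and 0.139). Without the 2 dimmest arrays, which leaves 1 array of 30 ng/kg, they were 0.47 and -0.78.

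STAT5A, a transcription factor downstream of the growth hormone and prolactin receptors, read -2.64, -2.29 and -2.58 in vehicle, -1.69, -2.49 and -1.38 at 30 ng/kg, and -2.78, -2.77 and -2.72 at 300 ng/kg. The 300 ng/kg arrays were the lowest and lay close together, and at 30 ng/kg replicates 1 and 3 were the highest. Groups without overlap were found for 22.7% of all tested probes at 300 ng/kg against vehicle and 25.6% between the doses. Between the doses STAT5A differed by -0.90 ± 0.29 (limma, unadjusted p = 0.0127, adjusted p = 0.173). It passed the test without replicate 2 of 30 ng/kg, at -1.22 (limma adjusted p = 0.0354), and stood at -0.26 without the 2 dim arrays and -0.47 with brightness as a covariate.

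KLK3, prostate-specific antigen, is a protease of the luminal epithelium that can cut IGFBP3. One of its probes had saturated spots on 6 arrays. The other, A_01_P009838, read 3.92, 5.79 and 3.30 in vehicle, 5.43, 4.61 and 5.89 at 30 ng/kg, and 2.85, 3.02 and 2.74 at 300 ng/kg. The 300 ng/kg arrays were below all others, beside 22.7% of all tested probes without overlap against vehicle and 25.6% between the doses, in either direction. The difference at 300 ng/kg was -1.47 ± 0.59 against vehicle (limma, unadjusted p = 0.0339, adjusted p = 0.303) and -2.44 ± 0.59 against 30 ng/kg (limma, unadjusted p = 0.00246, adjusted p = 0.16). Without vehicle replicate 2, the highest of its group, the first of these was -0.74. With brightness as a covariate they were -1.38 and -2.32 (limma, unadjusted p = 0.108 and 0.0329). Without the 2 dimmest arrays, which leaves 1 array of 30 ng/kg, the difference between the doses was -1.74.

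GHR, the growth hormone receptor, was not well above background on any of the 9 arrays, with a signal from 1.21 to 13.0 intensity units, and every array lay at the floor. PRLR, the prolactin receptor, had both spots well above background on 1 array, replicate 3 of 300 ng/kg. Neither was tested. The authors' deposited table nevertheless lists GHR with a fold of 1.45 up at 30 ng/kg and 1.57 down at 300 ng/kg, and PRLR with 2.03 up and 2.11 up. For STC2 the authors' deposited table gives 2.02 up at 300 ng/kg, and for IRS2 1.66 up at 30 ng/kg.

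Markers of the cell types of the gland moved beside these values, and their part in them was not tested. The stromal sources of IGF1 could be followed by few genes: of 7 fibroblast markers 2 were named, COL1A1 and COL1A2, whose summed level was 2.75 to 3.00 in vehicle, 2.57 to 3.09 at 30 ng/kg and 3.43 to 4.32 at 300 ng/kg. The 30 ng/kg arrays had sums of 2.64, 3.09 and 2.57, so that replicates 1 and 3 were below all vehicle arrays and replicate 2 above them. COL1A2, the larger part of the sum, had that order, as IGF1 did, but COL1A1 did not. COL1A1 read 0.61, 0.54 and -0.07 at 30 ng/kg, with replicate 1 above all vehicle arrays (0.56, -0.68 and 0.16). Of 9 smooth muscle markers LMOD1 and TPM2 were named, with a sum of 7.79 to 8.40, 7.92 to 8.81 and 6.87 to 7.63 in the same order. Of 9 luminal markers KLK3, MSMB and TGM4 were named, with 5.71 to 7.28, 7.17 to 7.35 and 5.72 to 7.78 when the saturated KLK3 probe was left out, and these genes went opposite ways. MSMB, like KLK3, had a lower mean at 300 ng/kg than in vehicle, by 0.73 on the log2 scale (limma adjusted p = 0.353), while TGM4, a transglutaminase of the seminal plasma, was higher by 8.87 ± 1.44 (limma, unadjusted p = 0.000167, adjusted p = 0.216). TGM4 read -3.89, -4.55 and -2.54 in vehicle and 6.81, 1.42 and 7.41 at 300 ng/kg. The endothelial marker PECAM1 (1 of 4) stood at -0.13 to 0.29, 1.13 to 1.60 and -0.56 to 0.36. The adipocyte marker LPL (1 of 4) stood at -0.15 to 0.46, 1.39 to 2.07 and 1.13 to 1.89, and the basal markers ITGB4 and S100A2 (2 of 6) at 2.18 to 2.80, 2.95 to 3.37 and 2.58 to 2.67. This basal sum is nearly that of ITGB4 alone, and S100A2 was weak. At 30 ng/kg against vehicle ITGB4 differed by 0.72 and S100A2 by -0.69, and between the doses by -0.52 and 2.24. Both had higher means at 300 ng/kg than in vehicle. No marker of leukocytes, seminal vesicle, urothelium or skeletal muscle was named in the authors' deposited table.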

How the data were processed

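RNA of 9 offspring was measured on 9 arrays, grouped by the dose in the labels. Per the file headers, Agilent Feature Extraction 9.5.1.1 read the images (9.5 in the submitters' processing notes). Its processed signal, as deposited, is a linear intensity with the background of each array already subtracted. The authors' deposited table lists 1502 probes with a fold (a ratio of 1 or more, with its direction), and 1366 of them carry a symbol in their description. How the authors normalized it is not given in sources used here, and its 9 flag columns per sample stayed unused.

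Outlier spots were dropped, the 2 spots of a probe averaged, and the mean divided by its array's 75th percentile. Values under 5 units of the dimmest array were set to that floor (-6.10 as log2). Of 20217 probes, the 15160 with both spots well above background on every array of some group were tested. limma 3.58.1 (with R 4.3.3, statmod version 1.5.0 and version 1.17.8 of data.table) fitted group alone to all 9 arrays. The deviations of same-numbered arrays of vehicle and 30 ng/kg from their group means had r = 0.134, 0.543 and 0.264. The labels give each sample its own animal, so the replicate number is no known pairing. It served only for same-number differences and as a block in an alternative fit. The largest r joins the brightest arrays of these groups (75th percentiles 1193 and 1356), and the part of brightness in it was not tested. Those of 300 ng/kg with the other groups had r from -0.256 to 0.104. Arrays of unlike number reached r = 0.149 between vehicle and 30 ng/kg and 0.292 between vehicle and 300 ng/kg, so the pairing is uncertain. A call was a 2-sided p under 0.05 after Benjamini-Hochberg adjustment over the tested probes. The fit had 6 residual and 2.99 prior degrees of freedom, and the median residual SD was 0.400. Precision is limited by having 9 arrays. The script was tested on simulated data.

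The genes named were the members, every measured gene of the pathway list, and the gene likest to each member by Pearson's r. The members and lists were chosen with earlier results of these data known. Symbols other than the members' come only from the authors' table, whose descriptions name mostly human transcripts. The array's positions and the macaque reference table (T2T-MMU8v2.0) belong to different builds, so no coordinates are given. Alternatives were other background, scaling, floor, filter, slide, replicate, weight, prior and brightness settings and each array left out. The within-array ratios and the fit without the 2 dimmest arrays were added after seeing the data.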

Additional observations from a re-analysis of the deposited data

How the results depend on the processing

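Of the 18 differences (6 genes in 3 comparisons), 5 kept their direction under all alternatives run: IGF1R at 300 ng/kg against vehicle, IGFBP2 and IGFBP5 at 30 ng/kg against vehicle, and IGFBP2 and IGFBP4 between the doses. Over all alternatives 44 of 440 values changed sign, 13 of them with 1 array left out. Many of the 440 could not change sign. The filter, compared-groups, replicate-block and prior settings leave the difference as it is, and so does leaving out an array of the group not compared. These counts therefore overstate how steady the directions are. The number of genes past an adjusted p of 0.05 was 0 throughout, except 1 (IGF1) between the doses with array weights, at 1.23 (limma adjusted p = 0.0388; over its alternatives other than single arrays left out, 0.0388 to 1), where 19.5% of all tested probes passed, and 1 without 30 ng/kg replicate 2, where 5.11% did. With 1 array left out that number was thus 0 to 1 between the doses and 0 to 0 in the other comparisons, and the number at an unadjusted p under 0.05 was 0 to 2 at 30 ng/kg, 0 to 2 between the doses and 0 to 0 at 300 ng/kg. The 2 were without 30 ng/kg replicate 2, beside 12.8% and 30.5% of all tested probes. The unadjusted number, 0 as reported, was 1 at 30 ng/kg with no filter, with the filter on all 9 arrays and with a trended robust prior, beside 5.14%, 5.12% and 5.06% of all probes tested in that fit, and 3 with array weights, beside 20.8%. Between the doses it was 1 with normexp, no filter or array weights, beside 29.4%, 17.0% and 39.2%, 2 with quantile normalization or slide as a fixed block, beside 21.8% and 24.1%, and 3 on a single slide, beside 24.7%. At 300 ng/kg it was 2 with slide as a fixed block, beside 18.8%, and 1 with brightness as a covariate, beside 7.36%. With slide as a block, vehicle enters the 300 ng/kg difference only by its replicate 3, since no slide held both groups.

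The signs that turned were these, and the cause was not tested. At 30 ng/kg against vehicle, IGF1 was 0.34 without the 2 dimmest arrays. IGF1R was -0.017 with median scaling, -0.44 with slide as a fixed block or on a single slide, -0.12 with brightness and -0.39 without the dimmest. IGFBP1 was -0.16 with quantile normalization, -0.67 with slide as a fixed block or on a single slide and -0.36 without the dimmest, and IGFBP4 was 0.068 with slide as a fixed block or on a single slide. At 300 ng/kg against vehicle, IGF1 was -0.79 with brightness, IGFBP1 -0.57 with normexp and -2.07 with slide, IGFBP2 0.24 with quantile normalization and 0.11 with slide, IGFBP4 -0.12 with array weights, and IGFBP5 0.18 with quantile normalization and 0.030 with array weights. Between the doses, IGF1 was -0.33 with brightness and -0.31 without the dimmest, IGF1R 0.052 with brightness, and IGFBP5 -0.23 and -0.018 with these. IGFBP1 was 0.47 with quantile normalization, 0.13 with median scaling, 0.15 with a floor of 1 unit, 0.026 with array weights, 0.16 with brightness and 0.54 without the dimmest.

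With 1 array left out, taking 30 ng/kg against vehicle first, then 300 ng/kg, then the doses against each other, IGF1 ran from -1.44 to -0.54, -0.10 to 0.22 and 0.58 to 1.48. IGF1R ran from -0.23 to 0.30, -0.67 to -0.30 and -0.79 to -0.26, and IGFBP1 from -0.36 to 0.61, -0.0097 to 0.32 and -0.43 to 0.54. IGFBP2 ran from -0.60 to -0.36, -0.22 to -0.10 and 0.22 to 0.46, IGFBP4 from -0.50 to -0.16, -0.048 to 0.29 and 0.38 to 0.52, and IGFBP5 from -0.63 to -0.28, -0.26 to 0.064 and 0.18 to 0.54. Normexp moved the median of all tested probes by -0.22 at 300 ng/kg, 0.29 at 30 ng/kg and -0.52 between the doses, and median scaling moved the last by 0.15. Relative to that shift, IGFBP1 under normexp at 300 ng/kg was -0.35, and under median scaling between the doses -0.023. IGF1R with median scaling at 30 ng/kg was 0.048 relative to its shift, the direction reported. Of the 44 values that changed sign, 5 kept the reported direction relative to the shift of all probes.

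With the replicate number as a block, 0 genes passed in each comparison, and IGF1 stood at -0.84 at 30 ng/kg (limma, unadjusted p = 0.0685, adjusted p = 0.818). The block changed no call of the 6 genes. The mean of a gene's probes was not run, since each gene had 1 probe, nor was a single slide for 300 ng/kg against vehicle, since no slide held both. IGFBP1 has no value under the filter on all 9 arrays, nor at 30 ng/kg with the compared groups alone. At weak signal, IGFBP1 and the untested GHR and PRLR are limited by background.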
